A study of Rattus norvegicus with 6 samples.

Results

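The type I interferon-stimulated genes of the rat spinal cord were taken from a list of 40 gene names, each matched exactly to the gene names of the deposited gene table. The table of 30957 genes held 38 of them. Oas1b and Xaf1 were not found under those names and were not analysed here. All 38 had enough counts to be tested, among 14908 tested genes. RNA was sequenced from 3 libraries of rats with bone cancer pain (BCP) and 3 libraries of sham-operated rats, all adult female Wistar rats at 14 days after the operation. In the BCP group, living Walker 256 cells, a rat mammary carcinoma line, had been placed in the marrow cavity of the left tibia, and the sham group had received heat-killed cells of the same line, so both groups carried an injected bone and dead or living tumour material. The tissue was the injected side of the lumbar enlargement, without meninges. The labels number the libraries but do not say which animals they came from, so the p-values measure the spread between these libraries.

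Type I interferons are secreted proteins that bind a receptor of IFNAR1 and IFNAR2, which carries the kinases JAK1 and TYK2. A complex that includes STAT2 and IRF9 then binds a short element, the interferon-stimulated response element (ISRE), in front of many antiviral genes. Interferon gamma acts through another receptor and mainly on gamma-activated sites (GAS), and many antiviral genes respond to both kinds of interferon.

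The promoters of 26 of the 38 genes were found in a RefSeq table of the GRCr8 assembly, as windows of 300 bases, 250 before and 50 after the start of transcription. The letters GAAANNGAAA, the core of an ISRE, were searched on both strands. They were present in 18 of the 26 windows (69.2%), beside 1312 of the 33469 windows of the whole table (3.92%). The GAS letters TTCNNNGAA, which read the same on both strands, were present in 5 of the 26 (19.2%), beside 8.87% of all windows, and in 1 of these promoters the GAS match overlapped an ISRE match. A match describes letters in the window and not a bound factor. The windows below are of 4 genes that passed both thresholds of the test described further on. They are written 5′ to 3′ on the strand of the gene with the ISRE matches in capitals, and are shown for the different number, spacing and direction of these matches. The window of Oas3 lies at chr12:41439482-41439781 on the plus strand, with the match starting 95 bases before the start of transcription.
Oas3: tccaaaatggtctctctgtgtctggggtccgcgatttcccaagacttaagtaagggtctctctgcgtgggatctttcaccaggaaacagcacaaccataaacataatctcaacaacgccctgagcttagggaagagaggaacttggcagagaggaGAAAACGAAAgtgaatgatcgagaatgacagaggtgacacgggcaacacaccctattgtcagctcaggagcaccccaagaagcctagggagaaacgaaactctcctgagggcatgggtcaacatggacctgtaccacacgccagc
The window of Bst2 lies at chr16:18254918-18255217 on the minus strand, with a pair of overlapping matches, at 131 and 125 bases before the start, and the GAS match overlaps the first of the pair.
Bst2: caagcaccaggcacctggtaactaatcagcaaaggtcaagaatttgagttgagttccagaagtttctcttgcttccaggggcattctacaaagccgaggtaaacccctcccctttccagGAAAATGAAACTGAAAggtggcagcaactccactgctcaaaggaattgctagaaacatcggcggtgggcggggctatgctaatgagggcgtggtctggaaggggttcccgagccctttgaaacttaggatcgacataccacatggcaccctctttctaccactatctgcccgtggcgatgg
The window of Parp14 lies at chr11:78407884-78408183 on the plus strand, with the match 76 bases before the start.
Parp14: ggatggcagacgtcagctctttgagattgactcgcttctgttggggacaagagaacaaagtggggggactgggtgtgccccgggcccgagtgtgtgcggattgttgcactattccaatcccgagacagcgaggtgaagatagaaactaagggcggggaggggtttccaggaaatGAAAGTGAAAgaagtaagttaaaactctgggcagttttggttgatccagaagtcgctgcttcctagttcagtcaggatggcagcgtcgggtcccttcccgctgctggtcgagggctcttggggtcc
The window of Ifi44l lies at chr2:243328473-243328772 on the plus strand, with a match in the reverse direction at 91 and another at 59 bases before the start.
Ifi44l: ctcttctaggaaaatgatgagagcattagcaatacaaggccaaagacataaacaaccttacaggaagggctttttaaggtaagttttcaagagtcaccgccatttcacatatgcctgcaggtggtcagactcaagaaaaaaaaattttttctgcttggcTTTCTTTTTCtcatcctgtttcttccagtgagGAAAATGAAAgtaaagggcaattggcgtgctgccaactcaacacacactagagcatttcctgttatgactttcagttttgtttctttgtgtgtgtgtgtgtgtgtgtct
The windows of Trim25 and of the first listed start of Sp100 held no ISRE match, although both genes passed the thresholds. Among the members with a window, those past the thresholds held an ISRE match in 5 of 7 windows (71.4%) and the others in 13 of 19 (68.4%). A GAS match was in 3 of the 7 (42.9%) and in 2 of the 19 (10.5%). These small numbers were not tested.

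The libraries had between 11779485 and 15004290 counts on genes. Sham library 3 stood apart from sham libraries 1 and 2 for these genes. It had the lowest normalised read count (CPM, the count scaled to the TMM-normalised library size) of the sham group in 35 of 38 members (92.1%), beside 35.8% of all tested genes. The median member was 0.79 below the mean of the sham libraries on the log2 scale in sham library 3, and 0.49 and 0.29 above it in sham libraries 1 and 2, whereas the median of all genes stayed within 0.01 of the sham mean in these 3 libraries. In the BCP libraries 1, 2 and 3 the median member was 0.93, 1.43 and 1.18 above the sham mean. BCP library 2 was the highest of its group in 33 of 38 members (86.8%), beside 32.5% of all tested genes.

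**Figure D1:**
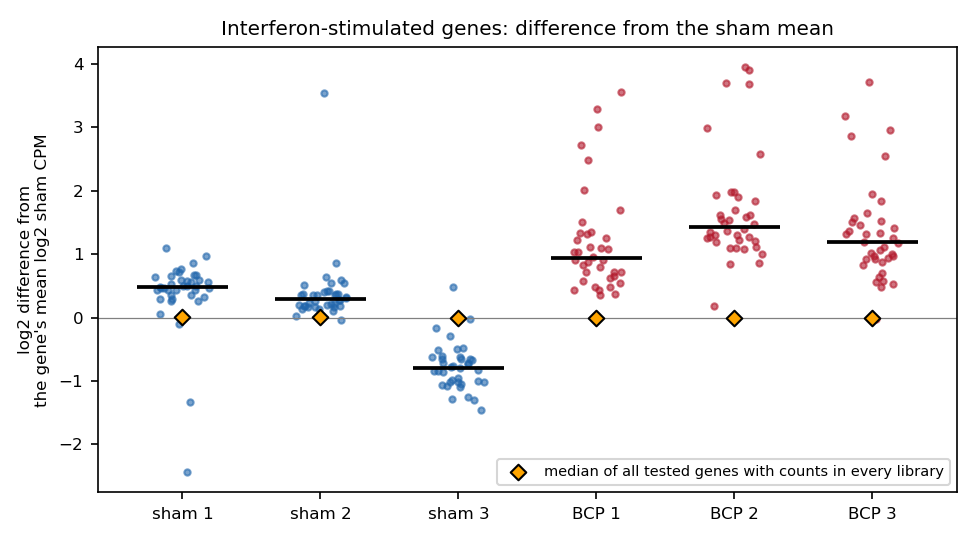
Each point is 1 of the 38 interferon-stimulated genes, plotted by library on the horizontal axis against its log2 difference from the mean log2 CPM of the 3 sham libraries. Black bars are medians of the members, at 0.49, 0.29 and −0.79 in sham libraries 1 to 3 and at 0.93, 1.43 and 1.18 in BCP libraries 1 to 3, and diamonds are medians of all tested genes with counts in every library.

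The spread within the sham group was wide for most members. The highest sham CPM was more than 2 times the lowest in 32 of 38 members (84.2%), beside 5.65% of all tested genes, and the median ratio was 2.55 beside 1.15 over all genes. In the BCP group 1 member, Ifit1, exceeded 2 times (2.63%), beside 3.98% of all tested genes, and the median ratio was 1.48 beside 1.15. Proliferation markers had a summed level of 12.5 CPM in sham library 3 and of 31.7 and 36.6 CPM in sham libraries 1 and 2, and microglial markers had 222 CPM in it and 282 and 269 CPM in the others. T cell markers had 5.47 CPM in sham library 3, between the 4.88 and 5.79 CPM of the others. Most of this sum was Cd4, with 4.42, 5.65 and 5.20 CPM in sham libraries 1, 2 and 3. The other T cell markers had at most 6 counts in a sham library, too few to compare these libraries. The part of these differences in the low level of the members was not tested.

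The 38 interferon-stimulated genes were compared between BCP and sham with edgeR's quasi-likelihood test, fitted over all genes. All 38 had a positive log2 fold change (log2FC, BCP over sham), with a median of 1.09 and a range of 0.06 to 3.61, beside a median of −0.01 and 47.7% positive among all tested genes. Without sham library 3 the median was 0.81, and Adar alone turned below 0. A gene was called higher when its adjusted p-value was under 0.05 and its log2FC over 1. By this rule 9 of 38 members (23.7%) were higher in BCP, beside 6.35% of all tested genes, namely Oas3, Ifitm1, Zbp1, Sp100, Ifi44l, Bst2, Trim25, Sp110 and Parp14. In bulk tissue, a change in the number of cells of a type and a change of RNA per cell cannot be told apart.

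None of the 38 was called lower by edgeR's quasi-likelihood test, beside 0.107% of all tested genes, nor by its exact test or DESeq2. At an unadjusted p under 0.05 none was lower and 18 were higher in the quasi-likelihood test. The shares of all tested genes at that unadjusted level were not counted, so these numbers have no background beside them. By the adjusted p alone, 10 members (26.3%) were higher, beside 15.8% of all tested genes, and 0 were lower, beside 12.1%. The log2FC was over 1 in 22 members (57.9%), beside 6.78% of all tested genes, and 13 of the 22 did not pass the adjusted p. In 29 members (76.3%) all BCP libraries lay above all sham libraries, beside 21.7% of all tested genes, and 19 of these 29 did not pass the adjusted p. The count of 9 depended on the test and on single libraries. DESeq2 called 17 members, beside 4.91% of the genes to which it gave a p-value, and edgeR's exact test called 21, beside 6.69%. By the adjusted p alone these tests found 20 members, beside 10.3% of all genes, and 31, beside 15.7%. The DESeq2 shares are over 20644 genes, including genes below edgeR's filter on low counts, and the exact test shares are over 14908. The shares of the 2 tests are therefore not over the same genes. With edgeR's quasi-likelihood test it was 10 without sham library 3, beside 6.19% of all genes, 5 without sham library 2, 5 without BCP library 2 and 4 without BCP library 3. Over all genes, 938 were called higher without sham library 2, 880 without BCP library 2 and 883 without BCP library 3, beside 946 with 6 libraries.

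**Figure D2:**
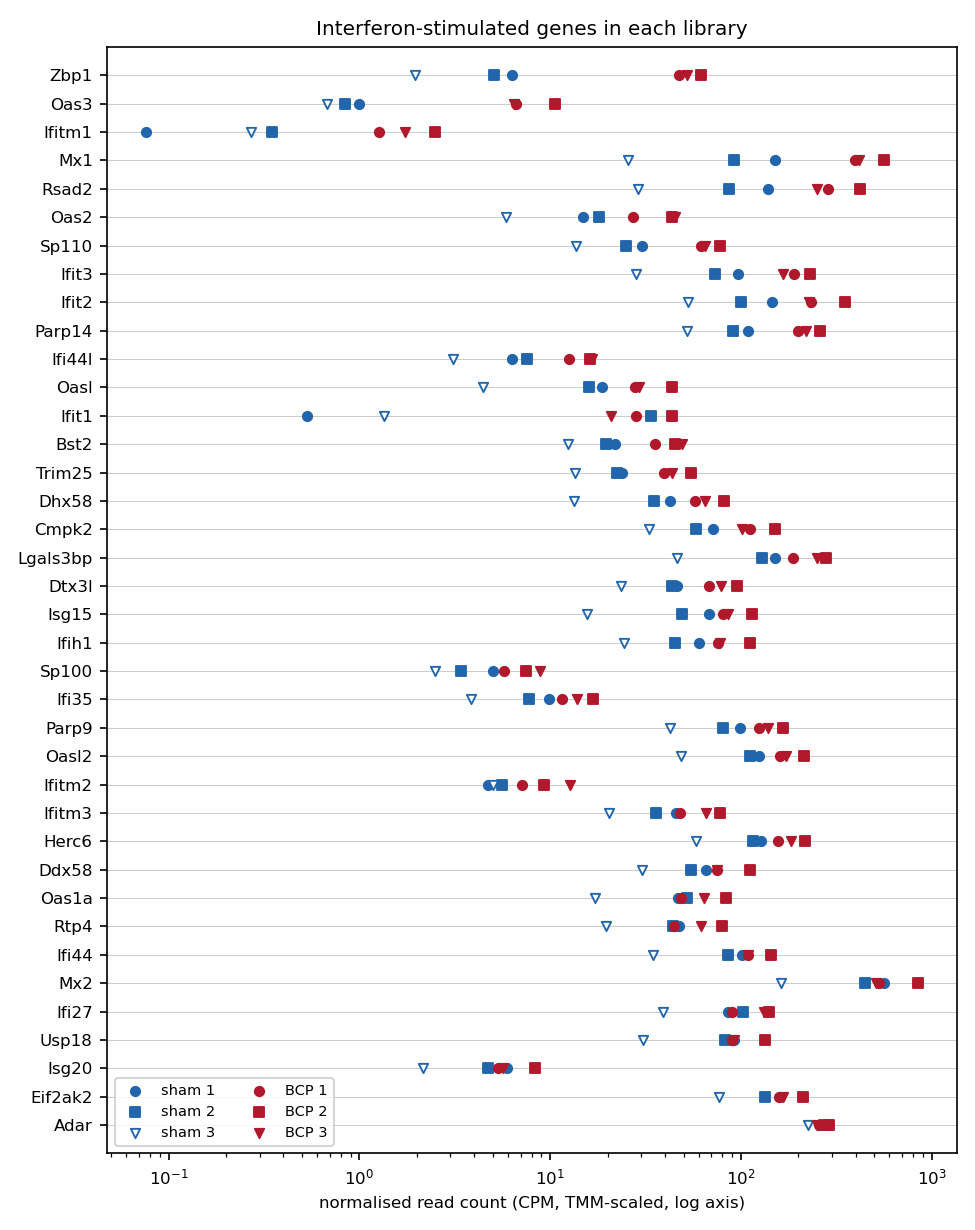
Normalised read counts (CPM, log axis) of the 38 genes, ordered by log2FC from top to bottom, with 1 point per library, sham in blue and BCP in red. The open triangle is sham library 3, the lowest of the sham libraries in 35 of 38 genes, and the groups do not overlap in 29.

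The OAS family makes or resembles enzymes that produce short oligoadenylates, which switch on RNase L. Oas3 (chr12:41316764-41336562, Rnor_6.0, as are all positions of genes that follow) had 0.990, 0.837 and 0.675 CPM in sham libraries 1, 2 and 3 and 6.59, 10.6 and 6.43 CPM in BCP libraries 1, 2 and 3. The groups did not overlap, and sham library 3 was little below the others. The log2FC was 3.24 ± 0.28 (SE; adjusted p = 3.19e-08). Oas3 is a low member, with 10 to 13 counts in the sham libraries and 78 to 148 in the BCP libraries. The other 4 measured members of the family did not pass the adjusted p. Oas2 had a log2FC of 1.59 ± 0.47 (adjusted p = 0.0823) and Oasl of 1.38 ± 0.55 (adjusted p = 0.163). Oasl2 and Oas1a had 0.95 and 0.76 (adjusted p = 0.186 and 0.364), and the groups overlapped in Oas1a.

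The Mx proteins are GTPases that hold back viral nucleocapsids. Mx1 had 151, 91.5 and 25.7 CPM in sham libraries 1, 2 and 3 and 394, 562 and 416 CPM in BCP libraries 1, 2 and 3. Every BCP library lay above every sham library, and the sham libraries differed among themselves by 5.86 times. The log2FC was 2.36 ± 0.69 and did not pass (adjusted p = 0.0776), and without sham library 3 it was 1.92 and passed (adjusted p = 0.0448). Mx2 had 565, 445 and 162 CPM in the sham libraries and 532, 851 and 508 CPM in the BCP libraries. Its groups overlapped, since sham library 1 was above BCP libraries 1 and 3. The log2FC of Mx2 was 0.69 ± 0.55 (adjusted p = 0.455).

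The IFIT proteins bind foreign RNA ends and block its translation. Ifit2 and Ifit3 had log2FC of 1.44 ± 0.45 and 1.57 ± 0.49 (adjusted p = 0.0935 and 0.0948), and their groups did not overlap. Without sham library 3 the log2FC of Ifit3 was 1.20 and passed (adjusted p = 0.0443). Ifit1 had 0.533, 33.6 and 1.35 CPM in sham libraries 1, 2 and 3 and 28.3, 43.3 and 21.0 CPM in BCP libraries 1, 2 and 3. Sham library 2 was here within the range of the BCP libraries, 63.1 times above sham library 1. The log2FC of Ifit1 was 1.37, with the largest SE of the members (adjusted p = 0.529), and without sham library 2 it was 4.99 (adjusted p = 0.0201). Ifit1lb, a neighbouring gene of the same family, had 13.6, 6.77 and 6.95 CPM in sham libraries 1, 2 and 3. In BCP libraries 1, 2 and 3 it had 11.2, 12.7 and 9.46 CPM. Ifit1lb was highest in sham library 1, where Ifit1 was lowest. It was alike in sham libraries 2 and 3, where Ifit1 differed widely. A link between the values of these genes was not tested. How the counting divided reads between such relatives is not given in the sources used here, and the values of Ifit1 are uncertain for this reason.

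Rsad2 makes viperin, which produces a chain-terminating nucleotide, and Cmpk2, its neighbour, makes a mitochondrial nucleotide kinase. Rsad2 had 138, 86.9 and 28.8 CPM in sham libraries 1, 2 and 3 and 285, 422 and 251 CPM in BCP libraries 1, 2 and 3. The groups did not overlap, and sham library 3 was 4.80 times below sham library 1. The log2FC was 1.92 ± 0.64 for Rsad2 (adjusted p = 0.108) and 1.17 ± 0.36 for Cmpk2 (adjusted p = 0.0877).

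Of the membrane effectors, Bst2 makes tetherin, which holds budding virions on the cell, and the Ifitm genes make proteins that block viral fusion. Bst2 (chr16:19938784-19942353) had 21.9, 19.6 and 12.4 CPM in sham libraries 1, 2 and 3 and 35.6, 45.1 and 49.3 CPM in BCP libraries 1, 2 and 3, with a log2FC of 1.28 ± 0.25 (adjusted p = 0.0188). Ifitm1 (chr1:213766758-213767815) had 0.0762, 0.349 and 0.270 CPM in the sham libraries and 1.27, 2.50 and 1.74 CPM in the BCP libraries. Ifitm1 rests on 1 to 5 counts per sham library and 15 to 35 per BCP library. Its log2FC was 2.93 ± 0.48 (adjusted p = 1.01e-04), and sham library 1, not 3, was the lowest. Ifitm2 (chr1:213750192-213751405) had 4.72, 5.58 and 5.00 CPM in the sham libraries and 7.10, 9.28 and 12.6 CPM in the BCP libraries. It passed the adjusted p but not the fold threshold, with a log2FC of 0.93 ± 0.20 (adjusted p = 0.00124), and it was the member past the adjusted p with the narrowest sham range, 1.18 times. Ifitm3 had a log2FC of 0.92 ± 0.37 (adjusted p = 0.166).

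Among the genes whose products act on RNA, Adar makes the adenosine deaminase ADAR1, Eif2ak2 the kinase PKR and Isg20 an exonuclease. None of the 3 passed and the groups overlapped in each, with log2FC of 0.06 ± 0.08 for Adar, 0.54 ± 0.32 for Eif2ak2 and 0.60 ± 0.33 for Isg20. Adar had 226 to 271 CPM in the sham libraries and 249 to 288 CPM in the BCP libraries, the narrowest BCP range of the members. It had an SE of 0.08, beside a median of 0.38 over the members.

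Zbp1, a sensor of left-handed nucleic acid that can start necroptosis, had the largest log2FC of the 38 members. Zbp1 (chr3:171276062-171286537) had 6.32, 5.09 and 1.96 CPM in sham libraries 1, 2 and 3 and 47.0, 61.4 and 52.4 CPM in BCP libraries 1, 2 and 3. The lowest BCP library was far above the highest sham library, and the log2FC was 3.61 ± 0.36 (adjusted p = 0.00264). The cytoplasmic RNA sensors in the list did not pass. Ifih1 (MDA5) had a log2FC of 1.04 ± 0.40 (adjusted p = 0.145), Dhx58 (LGP2) of 1.18 ± 0.47 (adjusted p = 0.160) and Ddx58 (RIG-I) of 0.80 ± 0.37 (adjusted p = 0.211). Their BCP libraries all lay above their sham libraries.

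ISG15 is a ubiquitin-like protein, Herc6 makes a ligase for it, Usp18 the protease that removes it, and Trim25 a ubiquitin ligase that acts on RIG-I. Trim25 (chr10:76343847-76362145) had 23.7, 22.5 and 13.5 CPM in sham libraries 1, 2 and 3 and 39.4, 54.5 and 43.5 CPM in BCP libraries 1, 2 and 3, with a log2FC of 1.21 ± 0.26 (adjusted p = 0.0282). Isg15 had 68.1, 49.2 and 15.6 CPM in the sham libraries and 80.3, 115 and 85.6 CPM in the BCP libraries. The BCP libraries of Isg15 were all above the sham libraries, but sham library 1 came close to BCP library 1. Its log2FC was 1.09 ± 0.57 (adjusted p = 0.265). Herc6 had 0.89 ± 0.35 (adjusted p = 0.161) and Usp18 0.62 ± 0.48 (adjusted p = 0.441).

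PARP14 and the PARP9 and DTX3L pair modify proteins with ADP-ribose or ubiquitin. Parp14 (chr11:68105369-68137535) had 109, 90.7 and 52.1 CPM in sham libraries 1, 2 and 3 and 199, 258 and 220.0 CPM in BCP libraries 1, 2 and 3, with a log2FC of 1.43 ± 0.32 (adjusted p = 0.0373). Dtx3l and Parp9, which lie next to each other, had log2FC of 1.10 ± 0.32 and 0.95 ± 0.36 (adjusted p = 0.0765 and 0.142). Sp100 and Sp110 make proteins of nuclear bodies. Sp100 (chr9:92681078-92717929) had 5.03, 3.42 and 2.50 CPM in the sham libraries and 5.74, 7.50 and 8.85 CPM in the BCP libraries. Its lowest BCP library was close to its highest sham library, and the log2FC was 1.03 ± 0.24 (adjusted p = 0.00291). Sp110 (chr9:92593910-92616165) had 30.3, 25.0 and 13.6 CPM in the sham libraries and 61.9, 77.5 and 64.5 CPM in the BCP libraries. The groups were wide apart in Sp110, with a log2FC of 1.57 ± 0.32 (adjusted p = 0.0292).

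Of the remaining induced genes, Ifi44l (chr2:256964860-256978668) had 6.32, 7.54 and 3.11 CPM in sham libraries 1, 2 and 3 and 12.6, 16.2 and 16.5 CPM in BCP libraries 1, 2 and 3. The groups did not overlap, and the log2FC was 1.43 ± 0.28 (adjusted p = 0.00657). Its neighbour Ifi44 had a log2FC of 0.72 ± 0.45 (adjusted p = 0.345). Lgals3bp, which makes a secreted glycoprotein that binds galectins, had 1.14 ± 0.50 (adjusted p = 0.195) and Ifi35 1.00 ± 0.34 (adjusted p = 0.0858). Rtp4 and Ifi27 had 0.75 and 0.68 (adjusted p = 0.313 and 0.351), and their groups overlapped. Ifi27l2b, a relative beside Ifi27 that is not on the list, had 6.02, 2.37 and 2.63 CPM in the sham libraries and 11.6, 18.3 and 16.2 CPM in the BCP libraries.

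In the 6 fits that each left out 1 library, 4 of the 9 called members kept their call every time, namely Oas3, Ifitm1, Zbp1 and Ifi44l. Without sham library 3, Sp100 and Trim25 fell under the fold threshold, with log2FC of 0.81 and 0.99, while their adjusted p passed (0.0149 and 1.6e-05), and Mx1, Oas2 and Ifit3 were called instead. All 10 members that passed the adjusted p with 6 libraries passed it also without sham library 3, and 17 passed it then, beside 14.0% of all tested genes. Parp14 kept its call in 1 of the 6 fits, the fit without sham library 3. Its adjusted p was 0.0516 without sham library 1, 0.113 without sham library 2 and 0.076, 0.118 and 0.109 without BCP libraries 1, 2 and 3. Sp110 lost its call without sham library 2 (adjusted p = 0.095) and without BCP libraries 1, 2 or 3 (0.0677, 0.0993 and 0.0894). Bst2 and Trim25 lost theirs without sham library 2 (0.0635 and 0.0712), BCP library 2 (0.0809 and 0.0572) or BCP library 3 (0.059 and 0.0892). Sp100 also fell under the fold threshold without sham library 2 (log2FC 0.99) and without BCP library 3 (0.88). Ifi35, with a log2FC of 1.29 without sham library 1, and Ifitm2, with 1.11 without BCP library 1, were called only in those fits.

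**Figure D3:**
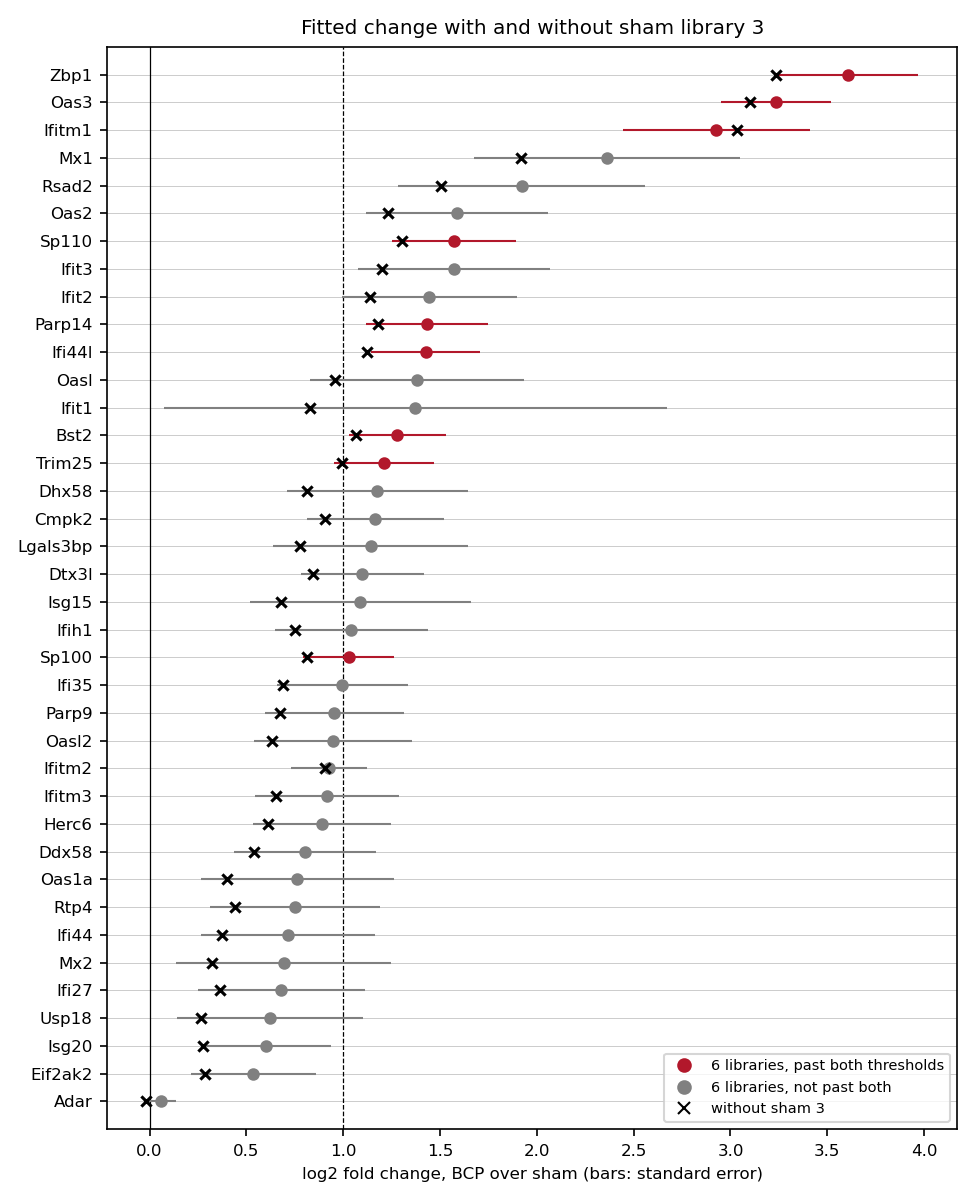
Log2 fold changes (BCP over sham, horizontal axis) of the 38 genes with all 6 libraries (points, with bars for the standard error) and without sham library 3 (crosses). The 9 genes past both thresholds are in red, and the cross lies left of the point in every gene but Ifitm1.

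Compared per length, as FPKM, the members differed widely in level. In the sham libraries Mx2 had the highest mean, 103 ± 54.4 FPKM (SD, n = 3), followed by Ifi27 with 71.6 ± 31.0 and Adar with 69.3 ± 6.70, which lay within the spread of each other. The lowest were Oas3 with 0.272 ± 0.0507, Ifitm1 with 0.403 ± 0.245 and Zbp1 with 1.35 ± 0.678. The 3 members lowest in sham were thus the 3 with the largest log2FC. The sham level enters the log2FC itself, so these rankings are not independent. Oas3 and Ifitm1 also rest on few sham counts. In the BCP libraries Mx2 was again first, with 172 ± 52.6 FPKM, followed by Mx1 with 140 ± 28.5, Ifi27 with 118 ± 27.1 and Lgals3bp with 110.1 ± 22.3, all within the spread of their neighbours. Mx1 had 26.5 ± 18.5 FPKM in the sham libraries. Oas3 and Ifitm1 remained lowest in BCP, with 2.64 ± 0.796 and 3.28 ± 1.13 FPKM, whereas Zbp1 reached 16.7 ± 2.34.

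The 38 genes lay on 11 chromosomes, and 18 of them within 100 kb of another member. No member overlapped another gene of the table. The lncRNA table of the same libraries listed 48 lncRNA transcripts that overlap a member or lie within 10 kb of one, of which 35 were tested. Of these, 4 were called higher by the same thresholds (11.4%), beside 1.14% of all 12157 tested lncRNAs, and none was lower by edgeR's tests or DESeq2, beside 0.0740%. All 4 overlapped a member, Sp100 for a pair of them, Mx1 and Trim25. Of the 18 tested transcripts that lay near a member without overlap, 0 were called by edgeR's quasi-likelihood test and DESeq2. Of these 18, 1 was called by edgeR's exact test, and 2 were higher and 1 lower at an unadjusted p under 0.05. The shares of all tested lncRNAs by DESeq2, by the exact test and at the unadjusted level were not counted. The numbers from these measures have no background beside them. NONRATT029597.2 (chr9:92704937-92718218), across the end of Sp100, had 0 counts in the sham libraries and 51, 73 and 71 counts in BCP libraries 1, 2 and 3. Set against a floor of 3 counts over the sham group it was at least 71.9-fold higher (adjusted p = 0.00255). NONRATT029596.2, which also overlaps Sp100, had a log2FC of 1.23 ± 0.16 (adjusted p = 0.00982), NONRATT005821.2 at Trim25 of 1.32 ± 0.19 (adjusted p = 0.0225) and NONRATT006918.2 at Mx1 of 2.52 ± 0.41 (adjusted p = 0.0294). The files do not say whether counting used the strand, so these transcripts may share reads with the member they overlap. The count of 4 fell to 1 without BCP library 3, and to 2 without BCP library 1, BCP library 2 or sham library 2. Of the 35 tested transcripts DESeq2 and edgeR's exact test each called 6 higher.

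The genes upstream of the members were taken from a list of 42 ligands, receptors, kinases, factors, sensors, adapters and inhibitors, of which 39 were in the table and 32 were tested. Of the 32, 15 were called higher (46.9%), beside 6.35% of all tested genes, and 0 lower, beside 0.107%. The list was chosen with earlier results of these data known, so these shares describe the listed genes only. By the adjusted p alone 8 more were higher and 1 was lower, where 15.8% and 12.1% of all tested genes passed the adjusted p in these directions whatever their fold change. DESeq2 and edgeR's exact test also called 0 lower, and the 1 gene lower at an unadjusted p under 0.05 was Traf3, an adapter, with a log2FC of −0.18 ± 0.06 (adjusted p = 0.034). Among the type I interferons themselves, none of 7 ligand genes passed the filter on low counts. Ifnb1 had 0 counts in the sham libraries and 1 count in each BCP library, Ifna2 had 3 at most, and Ifnk was at 0 in all 6 libraries, so that a difference was not detectable at this depth. Ifng, the type II interferon, had 0 counts in the sham libraries and 18, 25 and 18 counts in BCP libraries 1, 2 and 3, which is at least 22.0-fold higher against a floor of 3 counts over the sham group (adjusted p = 4.3e-06). Such floors cover counting error only.

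None of the type I and type II receptor genes and Janus kinase genes passed both thresholds. Ifnar1 had a log2FC of 0.17 ± 0.05 (adjusted p = 0.0168) and Ifnar2 of 0.27 ± 0.12 (adjusted p = 0.111), whereas the interferon gamma receptor genes Ifngr1 and Ifngr2 had 0.64 ± 0.09 and 0.96 ± 0.08 (adjusted p = 5.91e-05 and 9.06e-09). Jak1, Jak2 and Tyk2 had 0.23, 0.69 and 0.32 and passed the adjusted p but not the fold threshold. Of the type III receptor, Ifnlr1 was called higher, with 1.48 ± 0.34 (adjusted p = 0.00991). The factor genes Stat2, Irf7 and Irf9 did not pass. Stat2 had 1.14 ± 0.30 (adjusted p = 0.0597), Irf7, which amplifies interferon production, 1.31 ± 0.54 (adjusted p = 0.174) and Irf9 0.30 ± 0.30 (adjusted p = 0.554).

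Of the 6 IRF factor genes 3 were called higher, as were the 6 nucleic acid sensors of the pathway list, which does not hold the RNA sensors described above. Irf1 had a log2FC of 3.15 ± 0.27 (adjusted p = 0.00152), Irf8, a factor of myeloid cells, 2.97 ± 0.10 (adjusted p = 3.62e-11) and Irf5 1.92 ± 0.15 (adjusted p = 3.73e-07). Of the nucleic acid sensors 6 of 6 were higher, from 1.49 ± 0.13 for Tlr3 to 3.32 ± 0.32 for Tlr8, and Mb21d1, the DNA sensor cGAS, had 2.14 ± 0.35. Its adapter Tmem173 (STING) had 2.51 ± 0.17 and Myd88 1.66 ± 0.14, whereas Mavs, the adapter of the cytoplasmic RNA sensors, had −0.06 ± 0.10 (adjusted p = 0.726). The feedback inhibitors Socs1 and Socs3 had 2.88 ± 0.49 and 2.93 ± 0.30. Sham library 3 was the lowest sham library in 17 of the 32 tested pathway genes, beside 35 of 38 members.

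**Figure D4:**
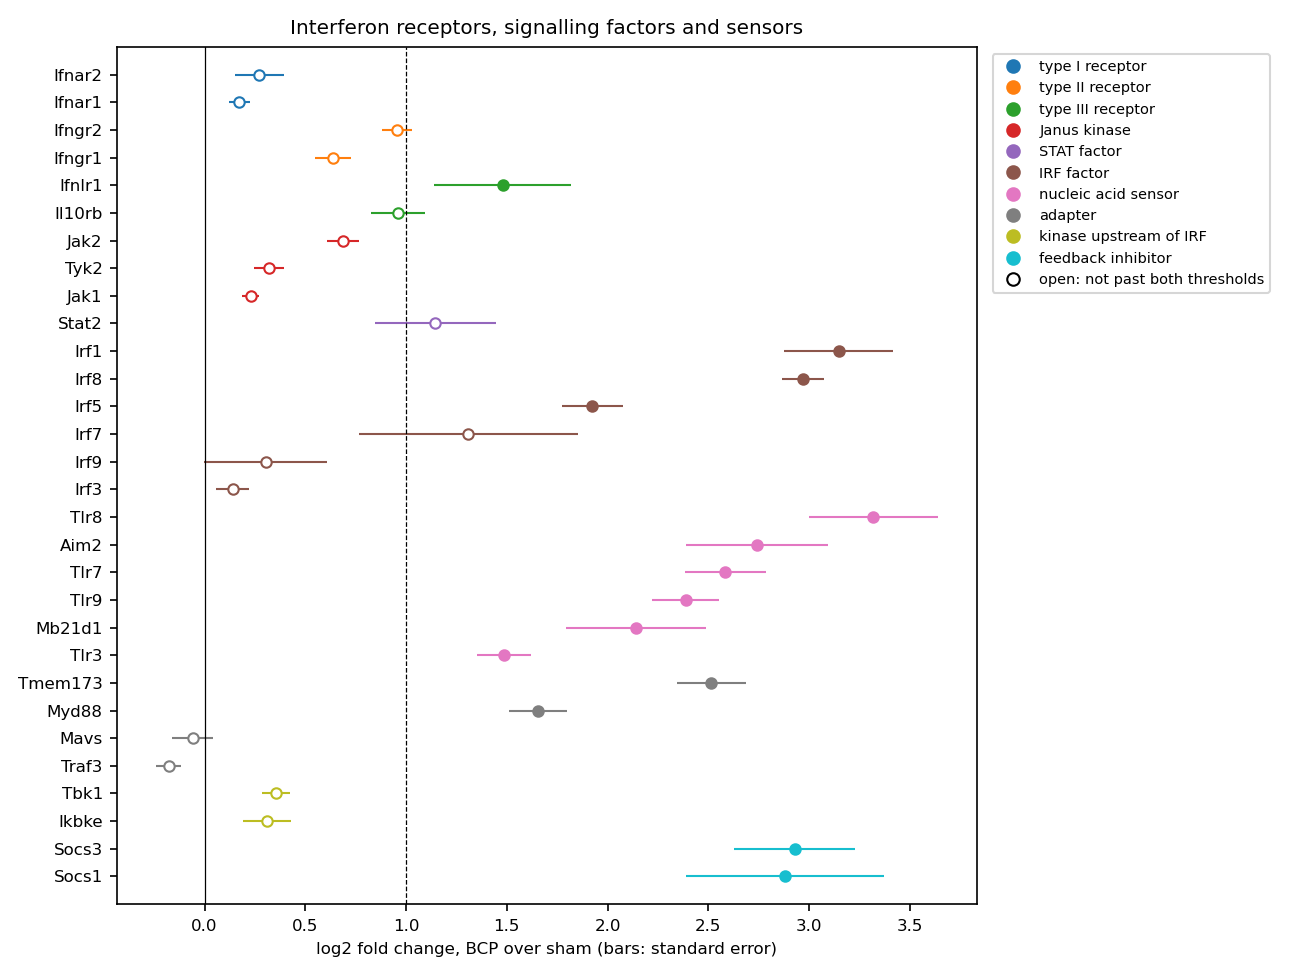
Log2 fold changes (BCP over sham, horizontal axis, with bars for the standard error) of 30 tested genes of the interferon pathway, coloured by role. Ifng is left out because all its sham counts were 0. Filled points passed both thresholds, among them 6 of 6 nucleic acid sensors, and the type I receptor genes and Janus kinases lie between 0 and 1.

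Genes known mainly for their response to interferon gamma were listed for comparison, although many also respond to type I interferon. Of 20 such genes 16 were tested, and 11 (68.8%) were called higher, beside 6.35% of all tested genes. The median log2FC was 2.37, beside −0.01. This list, like the members and the other gene lists, was chosen with earlier results of these data known. Its share and median therefore describe the listed genes only. None was lower by edgeR's tests or DESeq2, or at an unadjusted p under 0.05. The genes called higher included Cd74, the chain that escorts class II molecules, with 6.19 ± 0.11 (adjusted p = 3.16e-09), and the chemokines Cxcl9 with 5.73 ± 0.44 (adjusted p = 0.00112) and Cxcl10 with 3.28 ± 0.73 (adjusted p = 0.0383). Gbp1, Gbp2, Gbp4, Gbp5 and Cxcl11 did not pass (adjusted p = 0.229, 0.0768, 0.236, 0.122 and 0.0934). In these genes the highest sham CPM was 2.72 to 21.6 times the lowest. Sham library 3 was the lowest sham library in 15 of these 16 genes. Cd74 was not among them, with 9.29, 13.3 and 12.5 CPM in sham libraries 1, 2 and 3 and 874, 817 and 876 CPM in BCP libraries 1, 2 and 3.

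Markers of cell types moved with the group. Over all tested genes 6.35% were called higher and 0.107% lower. Of the microglial markers 4 of 7 were called higher. Their summed level was 222 to 282 CPM in the sham libraries and 590.1 to 695 CPM in the BCP libraries. All 6 tested T cell markers were higher. The summed level of all 7 listed T cell markers was 4.88 to 5.79 CPM in sham, mostly of Cd4, and 41.6 to 45.1 CPM in BCP. Cd4 was a large part of the BCP sum too, with 25.6, 20.5 and 19.7 CPM in BCP libraries 1, 2 and 3. The sums therefore depend much on this 1 gene. Cd3d and Cd5 were at 0 in the sham libraries. All 4 proliferation markers were higher (12.5 to 36.6 and 111 to 186 CPM), as were 3 of 4 red blood cell markers (244 to 258 and 465 to 674 CPM), 1 of 3 tested monocyte markers and the 1 tested neutrophil marker. No tested marker of neurons, motor neurons, astrocytes, oligodendrocytes or endothelium was called in either direction by edgeR's quasi-likelihood test or DESeq2. The same held for the tested markers of meninges and fibroblasts, skeletal muscle and epithelial tumour, and for the lumbar Hox genes. Tested here means past edgeR's filter on low counts, and no B cell marker passed it. Tnnt3, a skeletal muscle marker below this filter, was called higher by DESeq2, with a log2FC of 3.58 (adjusted p = 0.00232). Tnnt3 had at most 2 counts in any sham library and between 8 and 19 in each BCP library. The exact test called 1 astrocyte marker higher. Aqp4, the only astrocyte marker with a log2FC over 1 (1.53), had 2413 CPM in BCP library 1 but 360 and 361 CPM in BCP libraries 2 and 3. It had 353 to 379 CPM in the sham libraries. By the adjusted p of the quasi-likelihood test alone, 15.8% of all tested genes were higher and 12.1% lower. By this measure 1 of 5 astrocyte markers, Gfap, was higher and 2 were lower. By the same measure 5 of 5 oligodendrocyte markers and 3 of 5 neuronal markers were lower. So were 1 of 2 tested motor neuron markers, 1 of 4 tested markers of meninges and fibroblasts and 1 of 4 lumbar Hox genes. Counts of 1 in so few genes cannot be told apart from the share of 12.1%. The neuronal, oligodendrocyte and lumbar Hox genes were present in all 6 libraries, as the labelled tissue requires. The part of these cell types in the level of the interferon-stimulated genes was not tested.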

How the data were processed

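Strand-specific libraries depleted of ribosomal RNA were sequenced by the authors, who filtered the reads with Seqtk and mapped them to Rnor_6.0 with HISAT2 2.0.4. The authors deposited raw counts of each gene and lncRNA transcript in each library, and FPKM values made with StringTie 1.3.0. Which program counted the reads, and how it handled strand and multiply mapped reads, is not given in the sources used here.

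Genes and lncRNAs were fitted separately with edgeR 4.0.16 in R 4.3.3: filterByExpr on the condition, TMM normalization, a robust quasi-likelihood fit on condition alone, and Benjamini-Hochberg adjustment over all tested features. CPM is the count scaled to the TMM-normalised library size. A feature was called when the adjusted p was under 0.05 and the log2FC over 1 in size. The SE was taken as the log2FC divided by the square root of the F statistic. FPKM was used for levels between genes and was not tested. The biological coefficient of variation was 7.72% for genes. No library of a group repeated another, since the chi-square of their counts, divided by its degrees of freedom, was 3.61 to 6.33. Totals of 11779485 to 15004290 counts make counting error small beside the spread between libraries, except for genes with few counts.

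The members and gene lists were chosen with earlier results of these data known. Values in every library are given for members past the thresholds or past the adjusted p alone and for those with under 3 counts in a library. Those of Mx1, Mx2, Ifit1, Rsad2, Isg15, Cd74 and the relatives Ifit1lb and Ifi27l2b were chosen after their values were seen. Groups come from the sample labels. A gene of the pathway list is counted in the list's totals but its result is not reported here. The alternatives were DESeq2 1.42.0, edgeR's exact test, other normalizations, filters and thresholds, the replicate number as a block, and each library left out in turn. The code was tested on simulated counts. Promoters are RefSeq windows of GRCr8, which is not the build of the gene positions.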

Additional observations from a re-analysis of the deposited data

How the results depend on the processing

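The direction of each member stayed positive under every alternative run, except for Adar, whose log2FC was −0.0037 without BCP replicate 2 and ranged from −0.018 (without sham replicate 3) to 0.111 over the fits that left out 1 library. The median log2FC of the tested members was 0.81 to 1.33 when 1 library was left out and 1.06 to 1.17 under the other settings. The number of members called higher was 17 with DESeq2, 21 with edgeR's exact test, 3 with a test against a fold change of 2 and 4 to 10 with 1 library left out, beside 9. With at least 10 counts in every library 36 members were tested, and the pathway genes called higher numbered 9 instead of 15, whereas without a fold threshold they numbered 23. The lncRNAs near members called higher numbered 6 with DESeq2 and 6 with edgeR's exact test, beside 4. They numbered 1 with the test against a fold change of 2 and 1 to 4 with 1 library left out. Over all genes, 946 were higher and 16 lower. The higher genes numbered 1013 with DESeq2, 998 with edgeR's exact test and 880 to 1015 with 1 library left out. They numbered 548 with the test against a fold change of 2, 649 with at least 10 counts in every library and 2352 without a fold threshold. The lower genes numbered 10 with DESeq2, 6 with at least 10 counts in every library, 37 without a filter, 0 with the test against a fold change of 2, 1805 without a fold threshold and 16 to 33 with 1 library left out. The cause of these changes was not tested, except that the stricter filter tests fewer genes.

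Samples with the same replicate number did not deviate together over the tested genes (correlations of −0.11, 0.04 and −0.04). Not every sample correlated best with its own number. These values show no pairing by number. Correlations of deviations from means of 3 libraries cannot exclude it. With the replicate block 6 members, 907 genes and 1 lncRNA near a member were called higher.

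A group of 3 libraries limits what can be called, and the low counts of Oas3, Ifitm1 and the type I interferon genes limit the precision of their values.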
